A study of Mus musculus with 4 samples.

Results

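The 8 genes described here, Ung, Tdg, Smug1, Mbd4, Apex1, Xrcc1, Msh6 and Pms2, act in uracil excision and mismatch repair. They were taken by symbol from the deposited expression tables, in which all 8 were found among 23284 genes. RNA was sequenced from donor cells recovered from mouse bone marrow, with 2 libraries from recipients conditioned with 5-fluorouracil (5-FU) and 2 from untreated control recipients. Every donor was a CAG-EGFP mouse, in which a promoter active in most cell types drives EGFP, and every recipient was wild type. Each recipient was given 100000 LSK cells, the Lin- Sca1+ c-Kit+ marrow fraction that holds stem and multipotent progenitor cells, and EGFP+ cells were sorted again from its marrow mononuclear cells 24 h later. 5-FU had been injected intravenously at 200 mg/kg 2 days before the transplant, so the drug was given to the host and not to the donor animals, and the strain, sex and age of the mice are not given in the labels. The labels call the 2 replicates of a group biological and describe a sort from each recipient, but do not say whether donor cells were pooled.

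Uracil enters DNA when cytosine is deaminated or when dUMP is built in place of dTMP, and 5-FU, a pyrimidine analog, favours such incorporation by blocking thymidylate synthesis. In base excision repair a DNA glycosylase removes the base, an endonuclease cuts the backbone at the empty site, and a polymerase and a ligase close the gap on a scaffold protein. Mismatch repair recognises mispaired bases behind the replication fork, including uracil or fluorouracil opposite guanine, and then removes and resynthesises a stretch of the new strand. In the blood system Ung is best known for processing uracil made by the B cell deaminase AID.

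Apex1 and Msh6 rose in the EGFP+ cells from 5-FU recipients, and no gene of the 8 fell. Values are FPKM, fragments scaled by transcript length and by mapped reads, and fold changes and standard errors (SE) are on the log2(FPKM + 1) scale from limma, with p-values adjusted by the Benjamini-Hochberg method over 11496 tested genes and a threshold of 0.05. By that rule 2 of the 8 were higher, against 8.23% of all tested genes. None was lower, against 4.67% of all tested genes (12.9% in either direction). At an unadjusted limma p below 0.05, 3 of the 8 were higher and 0 lower, against 1948 higher and 1659 lower of the 11496 tested genes. Both 5-FU libraries lay above both control libraries for 5 genes, against 31.4% of all tested genes, and below both for 1 gene, against 30.7%, so the groups of 6 genes did not overlap, against 62.2% of all tested genes. The median log2 fold change was 0.51 over the 8 genes and -0.01 over all tested genes. All 8 passed the filter of 1 FPKM in at least 2 libraries.

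The promoters of Apex1 and Msh6, which passed the test, of Pms2, which came nearest to it among the others, and of Mbd4, whose values lay on the other side, are shown so that the genes can be compared at their start sites. The stretches come from RefSeq on GRCm38.p6, run from 150 bases before the start in the RefSeq promoter table to 30 bases from it, and are written 5′ to 3′ on the strand of the gene. They lie at chr14:50924799-50924978 on the plus strand for Apex1, chr17:87974900-87975079 on the plus strand for Msh6, chr5:143909851-143910030 on the plus strand for Pms2 and chr6:115853312-115853491 on the minus strand for Mbd4. Capitals mark CCAAT, the NF-Y word, or its reverse complement ATTGG, the E-box word CACGTG, and the E2F-type word TTTCCCGC.
Apex1: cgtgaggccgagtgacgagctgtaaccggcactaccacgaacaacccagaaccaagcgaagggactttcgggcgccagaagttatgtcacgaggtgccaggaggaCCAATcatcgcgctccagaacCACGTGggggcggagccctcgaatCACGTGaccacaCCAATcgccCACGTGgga
Msh6: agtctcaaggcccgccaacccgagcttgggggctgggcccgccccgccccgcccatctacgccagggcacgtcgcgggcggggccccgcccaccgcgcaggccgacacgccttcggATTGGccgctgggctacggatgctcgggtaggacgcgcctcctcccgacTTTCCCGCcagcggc
Pms2: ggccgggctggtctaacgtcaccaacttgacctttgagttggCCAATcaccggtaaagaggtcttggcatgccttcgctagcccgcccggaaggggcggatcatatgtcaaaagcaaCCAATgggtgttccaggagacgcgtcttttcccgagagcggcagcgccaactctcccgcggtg
Mbd4: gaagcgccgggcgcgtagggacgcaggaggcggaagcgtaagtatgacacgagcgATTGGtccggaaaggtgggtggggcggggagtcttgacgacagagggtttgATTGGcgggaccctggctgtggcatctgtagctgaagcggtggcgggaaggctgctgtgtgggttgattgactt

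The start in the promoter table equals the end of the gene span given below for Apex1, Xrcc1 and Msh6, and lies 24 to 100 bases inside it for Ung, Tdg, Mbd4 and Pms2. For Smug1 it lies 5655 bases inside the span, so its window belongs to another start than the outermost. In the windows of 300 bases around these starts, searched on both strands, the E2F-type word TTTCCCGC was found in Msh6 alone of the 8 genes, 15 to 22 bases downstream of the start base. It occurs in 1.07% of 32851 mouse promoter windows of that length, and any of the 4 E2F-type words searched (TTTCCCGC, TTTCGCGC, TTTGCCGC and TTTGGCGC) in 2.26%. CCAAT was found in 7 of the 8 windows, all but that of Ung, and in 37.4% of all windows. Pms2 had 3 copies, and Apex1 and Mbd4 had 2 each. CACGTG, which was added after the windows were seen, occurred 3 times in Apex1 and once in Tdg, and is in 7.15% of all windows. GGGCGG, the SP1 word, was in 6 of the 8 windows and in 35.7% of all, with 5 copies in Msh6, some of which share an end base. TTTGAA, the CHR word, was in none of the 8 windows and in 17.9% of all. These shares are over all windows, including those of genes not tested here. The 8 windows held more CpG pairs than 47.9% (Xrcc1) to 94.4% (Msh6) of all windows. A match describes the letters in the window and no site was tested.

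**Figure D1:**
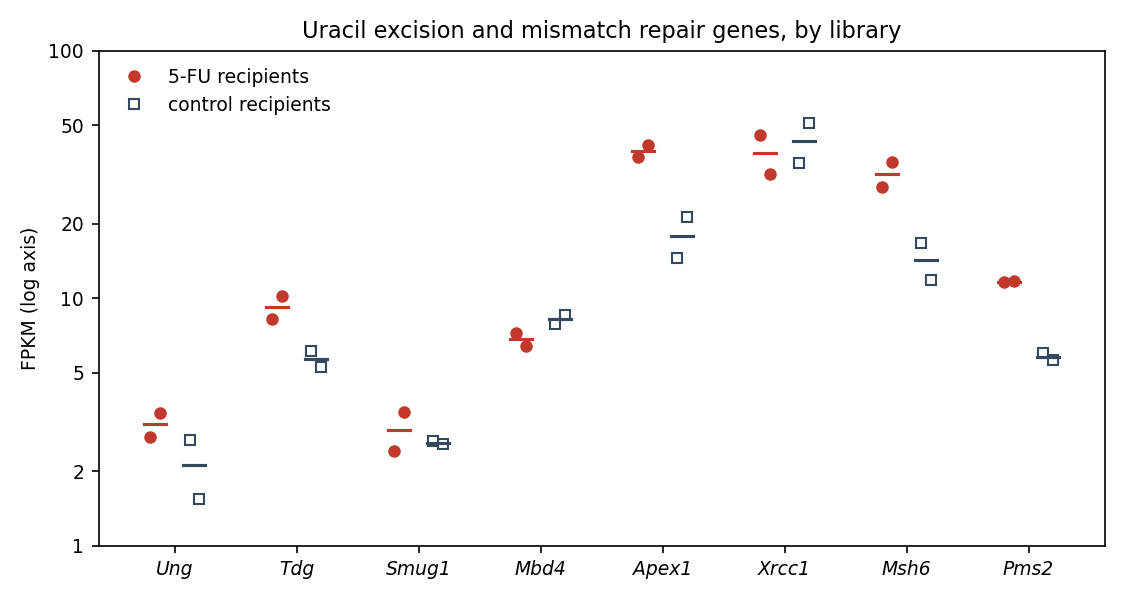
FPKM of the 8 genes in each library on a log axis, with filled circles for 5-FU recipients, open squares for control recipients and a line at each group's mean. Apex1 lies at 37.1 and 41.5 FPKM in 5-FU recipients, above the control recipients at 14.6 and 21.2, while the groups of Smug1 and Xrcc1 overlap.

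As FPKM are scaled by length, levels can be set side by side between genes, but only roughly. Annotated coding transcripts of Pms2 run from 1386 to 5482 bases, and Tdg and Apex1 share sequence with other transcripts, as given below. In 5-FU recipients the mean levels ran from Apex1 (39.3 FPKM), Xrcc1 (38.7) and Msh6 (31.8) through Pms2 (11.7), Tdg (9.23) and Mbd4 (6.82) to Ung (3.09) and Smug1 (2.95). In control recipients they ran from Xrcc1 (43.1 FPKM), Apex1 (17.9) and Msh6 (14.3) through Mbd4 (8.22), Pms2 (5.81) and Tdg (5.69) to Smug1 (2.61) and Ung (2.12). Neighbours whose libraries overlapped were Apex1 with Xrcc1, Xrcc1 with Msh6, and Ung with Smug1 in 5-FU recipients, and Apex1 with Msh6, Pms2 with Tdg, and Smug1 with Ung in control recipients. Thus Ung and Smug1 were the lowest of the 8 in both groups, and Apex1, Xrcc1 and Msh6 the highest. The summed FPKM of the 8 genes was 143 and 144 in 5-FU recipients, against 91.7 and 108 in control recipients. Over all genes the sum was 678270 and 762107 in 5-FU recipients, against 680412 and 678222 in control recipients. The second 5-FU library thus had the highest total, and no sum given here is scaled for it. With TPM scaling the median log2 fold change of the 8 genes was 0.47.

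The glycosylases start base excision. Ung encodes the main uracil-DNA glycosylase, which acts on uracil in replicating DNA, and lies at chr5:114130366-114139321 on GRCm38.p6, as do all coordinates given here. Ung had 2.74 and 3.44 FPKM in 5-FU recipients, against 2.68 and 1.55 FPKM in control recipients. The groups did not overlap, but by a narrow margin, since the lower 5-FU library and the higher control library differed by less than the members of either pair. The log2 fold change was 0.41 (SE 0.33, 95% interval -0.36 to 1.19, adjusted p = 0.44), so the test did not separate the groups. Depth is not given in the files, and rough estimates from low values put the Ung reads at 24 to 66 per library with its longest annotated transcript, for which counting error alone is 12.3% to 20.4%, and at 20 to 54 with its shortest. For Pms2 the longest gives 225 to 581 reads and the shortest 57 to 147. For Apex1, with 1 transcript length, the same estimate gives 127 to 465 reads and a counting error of 4.64% to 8.88%, and for Msh6, likewise, 368 to 1362 reads and 2.71% to 5.21%.

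Tdg encodes thymine-DNA glycosylase, which removes thymine and uracil opposite guanine and also the oxidised bases that TET enzymes make from methylcytosine (chr10:82629814-82650799). Tdg had 8.23 and 10.2 FPKM in 5-FU recipients, against 6.11 and 5.26 FPKM in control recipients. Both 5-FU libraries lay above both control libraries, with a log2 fold change of 0.61 (SE 0.27, 95% interval -0.02 to 1.24, adjusted p = 0.17). The level of Tdg is uncertain, because the genome holds near-identical processed copies. The copy listed as Gm9855 (RefSeq Tdg-ps2, chr10:42052558-42055453) matches the Tdg transcript at 99.2% of 1194 aligned bases and has a row of its own, with 29.8 and 38.4 FPKM in 5-FU recipients, against 21.5 and 19.2 FPKM in control recipients. Its ratio to Tdg was 3.62 and 3.75 in 5-FU recipients and 3.52 and 3.66 in control recipients, so the rows stood in nearly the same ratio in all 4 libraries. How reads were divided between these rows is not stated in the labels. The log2 fold change of Gm9855 was 0.70 (SE 0.22, adjusted p = 0.074).

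Smug1 encodes a single-strand-selective glycosylase that also removes oxidised pyrimidines such as 5-hydroxymethyluracil (chr15:103153290-103168939, minus strand). Smug1 had 2.41 and 3.48 FPKM in 5-FU recipients, against 2.64 and 2.58 FPKM in control recipients. The control libraries lay between the 5-FU libraries, and the log2 fold change was 0.12 (SE 0.31, 95% interval -0.61 to 0.84, adjusted p = 0.83). Its sign turned without the second 5-FU library, to -0.080.

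Mbd4 encodes a glycosylase with a methyl-CpG-binding domain that removes thymine or uracil opposite guanine at CpG sites (chr6:115840697-115853400, minus strand). Mbd4 had 7.23 and 6.40 FPKM in 5-FU recipients, against 7.90 and 8.53 FPKM in control recipients. It was the 1 gene of the 8 whose 5-FU libraries both lay below the control libraries, with a log2 fold change of -0.24 (SE 0.26, 95% interval -0.84 to 0.36, adjusted p = 0.57).

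None of the 4 glycosylases passed the test. Their summed FPKM was 20.6 and 23.6 in 5-FU recipients, against 19.3 and 17.9 in control recipients. Tdg made up 39.9% and 43.4% of that sum in 5-FU recipients, against 31.6% and 29.4% in control recipients. Mbd4 made up 35.1% and 27.2% in 5-FU recipients, against 40.9% and 47.6% in control recipients. The shares of these 2 genes did not overlap between the groups. Ung made up 13.3% and 14.6% in 5-FU recipients, against 13.9% and 8.64% in control recipients. Smug1 made up 11.7% and 14.8% in 5-FU recipients, against 13.6% and 14.4% in control recipients, so the shares of Ung and Smug1 overlapped. The ratio of Tdg to Mbd4 was above 1 in both 5-FU libraries, at 1.14 and 1.60, and below 1 in both control libraries, at 0.773 and 0.617. With 2 libraries a group the exact two-sided permutation test cannot go below p = 0.333, so ratios and shares are given without a test. The shares also rest on the uncertain level of Tdg.

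Apex1 encodes the main apurinic/apyrimidinic endonuclease, which cuts the backbone where a glycosylase has removed a base and is also known as a redox factor for transcription factors (chr14:50924949-50927188). Apex1 had 37.1 and 41.5 FPKM in 5-FU recipients, against 14.6 and 21.2 FPKM in control recipients. The groups were far apart, and the means were 39.3 ± 3.15 FPKM in 5-FU recipients and 17.9 ± 4.69 FPKM in control recipients (SD, n = 2 each). The log2 fold change was 1.11 (SE 0.24, 95% interval 0.55 to 1.67) with a limma adjusted p of 0.027. Without control replicate 1 or control replicate 2 it was 0.86 and 1.37. The call was lost in both fits, so it needs both control libraries, as did most higher calls over all tested genes. The related endonuclease gene Apex2 had 6.10 and 6.12 FPKM in 5-FU recipients, against 4.58 and 5.53 FPKM in control recipients (log2 fold change 0.24, SE 0.27, adjusted p = 0.60). The ratio of Apex1 to Apex2 was 6.07 and 6.79 in 5-FU recipients and 3.18 and 3.84 in control recipients.

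In the GENCODE annotation 1 of 4 transcripts of Pip4p1, on the opposite strand, covers 877 of the 1239 exon bases of Apex1, or 70.8%. The library protocol in the labels does not state a strand, so reads of this stretch cannot be told apart. Pip4p1, listed under its older symbol Tmem55b, had 67.6 and 64.8 FPKM in 5-FU recipients, against 52.7 and 63.5 FPKM in control recipients (log2 fold change 0.19, SE 0.19, adjusted p = 0.54).

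Xrcc1 encodes the scaffold that holds DNA polymerase beta and DNA ligase III at the nick (chr7:24546699-24573438). Xrcc1 had 45.8 and 31.7 FPKM in 5-FU recipients, against 35.2 and 51.0 FPKM in control recipients. The libraries of the groups alternated in rank order, and the libraries of each group differed by more than the means of the groups, which were 38.7 ± 9.97 FPKM in 5-FU recipients and 43.1 ± 11.2 FPKM in control recipients (SD, n = 2 each). The log2 fold change was -0.15 (SE 0.27, 95% interval -0.77 to 0.47, adjusted p = 0.74). Its sign turned to 0.11 without 5-FU replicate 2 and to 0.11 without control replicate 2. As Apex1 and Xrcc1 stand at successive steps, their ratio was also read, and it was 0.810 and 1.31 in 5-FU recipients and 0.414 and 0.416 in control recipients.

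Msh6 and Pms2 belong to mismatch repair, where the MSH6 protein is part of the MutSα complex that recognises base mismatches, and PMS2 part of the MutLα complex that nicks the new strand. Msh6 (chr17:87975050-87990892) had 28.3 and 35.4 FPKM in 5-FU recipients, against 16.7 and 11.9 FPKM in control recipients. The groups did not overlap, with means of 31.8 ± 5.06 FPKM in 5-FU recipients and 14.3 ± 3.40 FPKM in control recipients (SD, n = 2 each). The log2 fold change was 1.11 (SE 0.25, 95% interval 0.53 to 1.69, limma adjusted p = 0.030). Without control replicate 1 or control replicate 2 it was 1.34 and 0.88. The call was lost in both fits, so this call too needs both control libraries, like most higher calls.

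Pms2 (chr5:143909901-143972745) had 11.6 and 11.7 FPKM in 5-FU recipients, against 5.98 and 5.63 FPKM in control recipients. The libraries of each group were close together and the groups did not overlap, with a log2 fold change of 0.90 (SE 0.25, 95% interval 0.31 to 1.48), but its adjusted p of 0.055 lay just outside the threshold. It passed under 3 of 15 other settings, with adjusted p-values of 0.045 with a filter of 5 FPKM, 0.040 without 5-FU replicate 1 and 0.023 with a crossed replicate block, and missed under the others, where the highest was 0.33. The ratio of Msh6 to Pms2 was 2.44 and 3.02 in 5-FU recipients and 2.79 and 2.11 in control recipients, so this ratio overlapped between the groups.

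**Figure D2:**
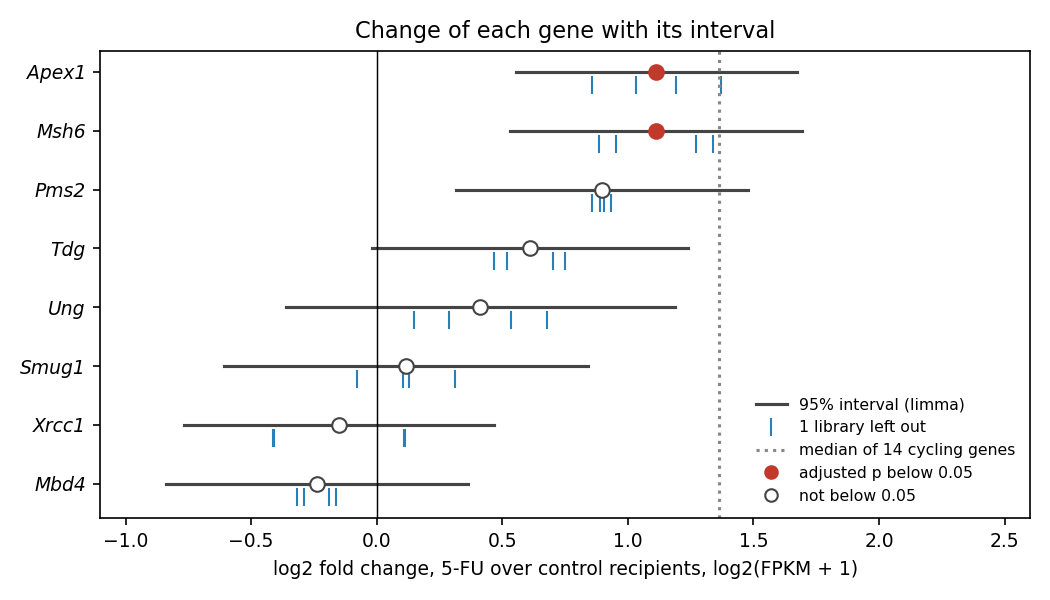
Log2 fold change of each gene, 5-FU over control recipients, on the log2(FPKM + 1) scale, with its 95% interval from limma and blue ticks for the fits with 1 library left out. Filled points, Apex1 and Msh6 at 1.11 each, have an adjusted p below 0.05, and the dotted line marks the median of 14 cycling genes at 1.36.

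Of the 8 genes, Ung and Tdg had the most alike pattern over the 4 libraries, at a distance of 0.317 between their centred log2(FPKM + 1) values, and Xrcc1 and Msh6 the least alike, at 1.56. Among 8527 other tested genes with a mean of 5 FPKM or more, the nearest to Apex1 were Poc1a (distance 0.0536) and Pfas (0.0721), and the nearest to Smug1 were Slc30a5 (0.0378) and 2210016L21Rik (0.0412). Poc1a had 9.60 and 10.7 FPKM in 5-FU recipients, against 3.13 and 5.10 FPKM in control recipients. With 4 libraries many genes lie this close, and the distances are a description.

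Neighbours at the start sites were read because some repair genes share a promoter region with a gene on the other strand. A gene on the opposite strand started within 1000 bases of the start of 4 of the 8 genes, against 17.2% of the tested protein-coding genes. Pms2 and Aimp2, a scaffold gene of the aminoacyl-tRNA synthetase complex, start 117 bases apart, and Aimp2 rose. Aimp2 had 58.8 and 78.7 FPKM in 5-FU recipients, against 25.6 and 29.1 FPKM in control recipients (log2 fold change 1.29, SE 0.22, limma adjusted p = 0.016). Mbd4 and Ift122, a gene of transport within cilia, start 99 bases apart. Ift122 had 2.10 and 1.19 FPKM in 5-FU recipients, against 3.61 and 3.99 FPKM in control recipients (log2 fold change -0.88, adjusted p = 0.11). Apex1 and Osgep, a tRNA-modification gene, start 75 bases apart, and Osgep had 56.9 and 68.9 FPKM in 5-FU recipients, against 52.2 and 50.4 FPKM in control recipients (log2 fold change 0.28, adjusted p = 0.36). In each of these 3 pairs both genes lay on the same side, and of the 3 neighbours only Aimp2 passed the test. Over all tested genes both 5-FU libraries lay above both control libraries in 31.4% and below both in 30.7%. The neighbours were chosen after their values were seen, and the pairs were not tested as pairs. The remaining pair was Xrcc1 with Pinlyp, 171 bases apart, and Pinlyp was not among the tested genes.

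**Figure D3:**
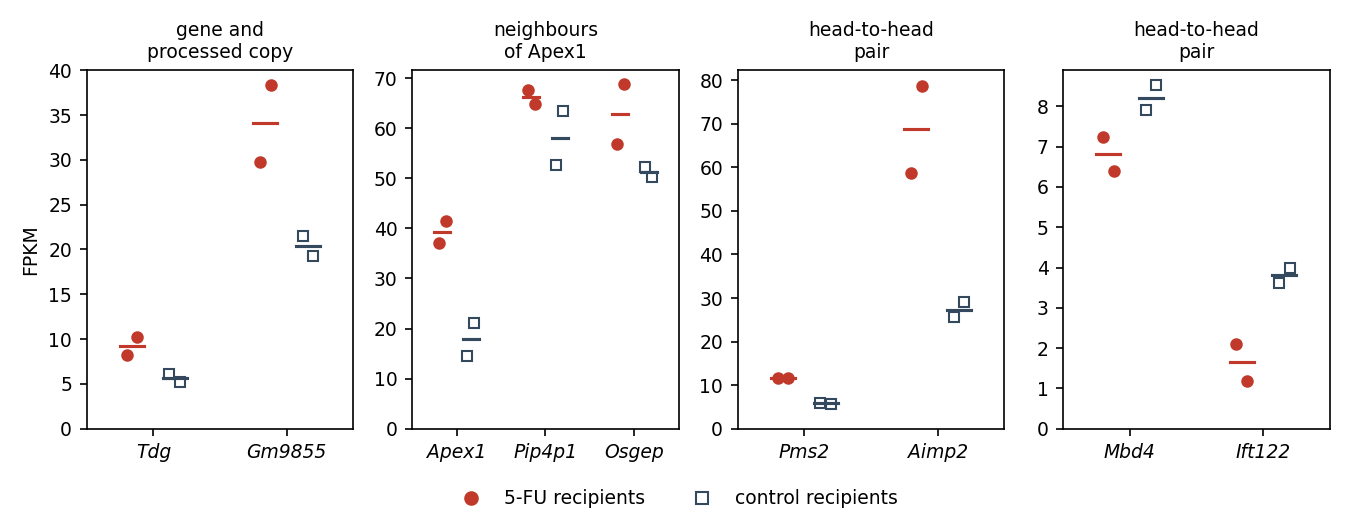
FPKM by library of Tdg and its processed copy Gm9855, of Apex1 with Pip4p1 and Osgep, and of the pairs Pms2 with Aimp2 and Mbd4 with Ift122, with filled circles for 5-FU recipients, open squares for control recipients and lines at the means. Aimp2 lies at 58.8 and 78.7 FPKM in 5-FU recipients and at 25.6 and 29.1 in control recipients, and each panel has its own axis from 0.

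Other genes of the pathways were read from lists chosen by function. Of 7 other DNA glycosylases 6 were tested, and 1 was higher, 16.7% against 8.23% of all tested genes. None was lower, and the median log2 fold change was 0.67. The higher gene was Neil3, which removes oxidised bases from single-stranded DNA and is known from dividing cells. It had 11.0 and 22.2 FPKM in 5-FU recipients, against 4.90 and 4.47 FPKM in control recipients (log2 fold change 1.56, SE 0.35, limma adjusted p = 0.030). Ogg1, the 8-oxoguanine glycosylase, had 14.8 and 11.6 FPKM in 5-FU recipients, against 5.17 and 9.66 FPKM in control recipients (adjusted p = 0.14). Mpg, which removes alkylated purines, had 8.60 and 13.5 FPKM in 5-FU recipients, against 8.13 and 10.3 FPKM in control recipients (adjusted p = 0.66).

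In the later steps of base excision none of 12 genes fell, and the median was 0.49. Of the 12 genes 4 rose, 33.3% against 8.23% of all tested genes. They were the flap endonuclease Fen1 (log2 fold change 1.58, SE 0.20, limma adjusted p = 0.0095), the replicative ligase Lig1 (1.39, SE 0.22, adjusted p = 0.014), the poly(ADP-ribose) polymerase Parp1 (1.05, SE 0.25, adjusted p = 0.036) and Lig3 (1.09, SE 0.28, adjusted p = 0.046). Lig3 encodes the ligase that XRCC1 binds, and it had 10.8 and 12.5 FPKM in 5-FU recipients, against 5.94 and 4.04 FPKM in control recipients. Fen1 and Lig1 act in the long-patch branch and in the joining of Okazaki fragments. Fen1 had 49.6 and 56.5 FPKM in 5-FU recipients, against 17.3 and 16.8 FPKM in control recipients. Pcna, the sliding clamp, had 214 and 273 FPKM in 5-FU recipients, against 158 and 133 FPKM in control recipients (adjusted p = 0.061), and Parp2 had 71.9 and 75.9 FPKM in 5-FU recipients, against 59.2 and 73.0 FPKM in control recipients (adjusted p = 0.61). Polb, the short-patch polymerase that XRCC1 also binds, was named after its values were seen, and had 31.2 and 32.6 FPKM in 5-FU recipients, against 28.9 and 31.1 FPKM in control recipients (log2 fold change 0.09, SE 0.20, 95% interval -0.37 to 0.54, adjusted p = 0.80).

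Of 6 other genes of mismatch recognition and excision none passed with limma, and their median was 0.22. At an unadjusted limma p below 0.05, 2 of the 6 were higher, against 1948 of 11496 tested genes. Of the 12 genes that resynthesise the strand, 7 rose, 58.3% against 8.23% of all tested genes, and none fell, with a median of 1.12. Among them were Pold2, a subunit of DNA polymerase delta (70.3 and 79.5 FPKM in 5-FU recipients, against 27.0 and 21.0 in control recipients, log2 fold change 1.61, SE 0.21, limma adjusted p = 0.0099), and the clamp loader genes Rfc4 (1.61, SE 0.26, adjusted p = 0.014) and Rfc3 (1.32, SE 0.23, adjusted p = 0.016). Rpa1, which coats single-stranded DNA, rose by 1.13 (SE 0.19, adjusted p = 0.015). Rfc2 had 91.2 and 131 FPKM in 5-FU recipients, against 87.3 and 74.7 FPKM in control recipients (adjusted p = 0.24), and Rpa3 had 75.6 and 145 FPKM in 5-FU recipients, against 54.8 and 53.6 FPKM in control recipients (adjusted p = 0.076). These genes also serve ordinary DNA replication. Over these 4 lists together 12 of 36 tested genes were higher, 33.3% against 8.23% of all tested genes, and none was lower. At an unadjusted limma p below 0.05, 20 were higher and 1 lower, against 1948 and 1659 of 11496 tested genes. The 12 higher calls too were lost, all or nearly all, without control replicate 1 or control replicate 2, so they need both control libraries, like most higher calls.

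Dut encodes the dUTPase that keeps dUTP out of DNA. Of 6 genes of uracil sources and the dUTP pool 4 were tested. Dut alone rose, 25% against 8.23% of all tested genes, and none fell. At an unadjusted limma p below 0.05 there were 2 higher and 2 lower, against 1948 and 1659 of 11496 tested genes. Dut had 73.9 and 125 FPKM in 5-FU recipients, against 27.7 and 21.9 FPKM in control recipients, and its log2 fold change was 1.92 (SE 0.28, limma adjusted p = 0.012). The cytidine deaminase Apobec3 had 88.5 and 97.9 FPKM in 5-FU recipients, against 69.5 and 59.4 FPKM in control recipients (adjusted p = 0.11). Apobec1 had 49.8 and 26.9 FPKM in 5-FU recipients, against 59.4 and 72.5 FPKM in control recipients (adjusted p = 0.10). Thus these deaminases lay on opposite sides, and neither passed. Samhd1, which breaks down deoxynucleotides and was named after its values were seen, had 19.9 and 17.6 FPKM in 5-FU recipients, against 32.6 and 31.3 FPKM in control recipients (log2 fold change -0.74, SE 0.21, adjusted p = 0.054). Of 9 TET and MBD family genes, which act on the methylated bases that Tdg and Mbd4 also handle, none passed with limma. Their median was -0.22, and 1 was higher at an unadjusted limma p below 0.05, against 1948 of 11496 tested genes. In nucleotide excision repair, which removes bulky lesions, 2 of 20 genes rose, 10% against a near share of 8.23% of all tested genes. They were Ercc8 (log2 fold change 1.32) and Rad23b (1.21). None of the 20 fell, and the median was 0.22.

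**Figure D4:**
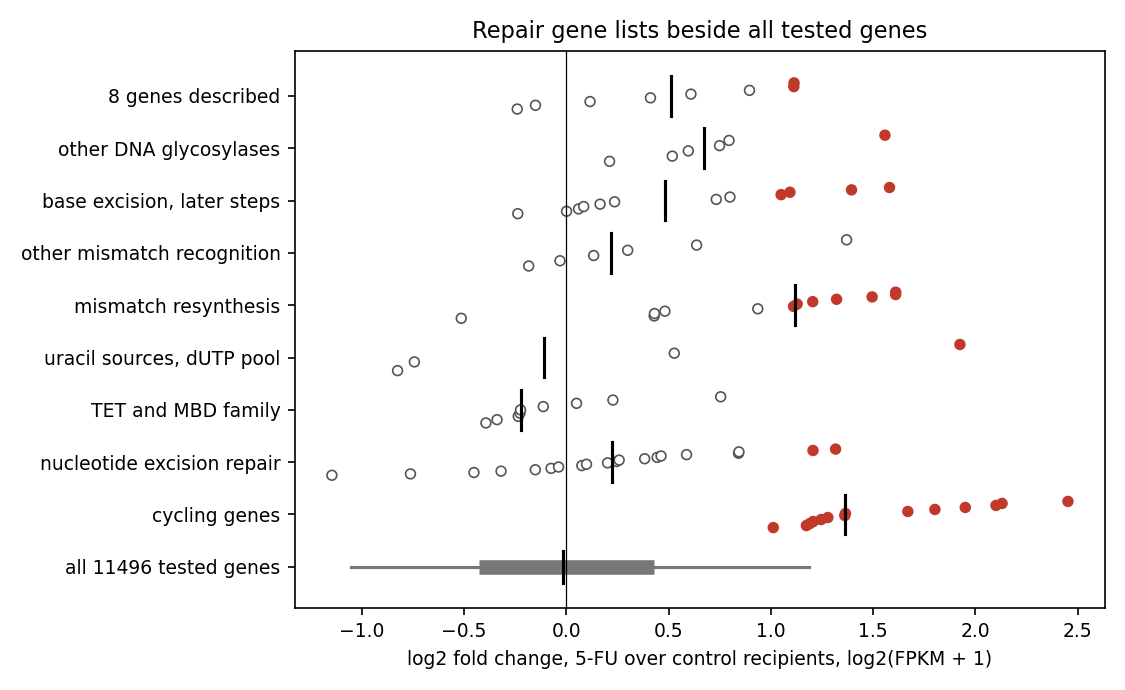
Log2 fold change, 5-FU over control recipients, of each tested gene in the repair and cycling lists, with filled points for an adjusted p below 0.05 and a black line at each median. The bar for all 11496 tested genes spans -0.42 to 0.43 between the quartiles and its thin line -1.05 to 1.19 for the central 90%; mismatch resynthesis has its median at 1.12.

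Cell cycle and cell type genes moved with the same comparison. All 14 cycling genes rose, with a median of 1.36 and a summed level of 1104 and 1600 FPKM in 5-FU recipients, against 501 and 473 FPKM in control recipients. The 10 stem and progenitor markers were present in every library and summed to 428 and 619 FPKM in 5-FU recipients, against 504 and 406 FPKM in control recipients, with 1 higher and none lower. The one that rose was Ly6a, which encodes the sort antigen Sca1, at 32.5 and 54.0 FPKM in 5-FU recipients, against 18.7 and 17.0 FPKM in control recipients (limma adjusted p = 0.032). Kit, the other sort antigen, had 66.2 and 69.5 FPKM in 5-FU recipients, against 103 and 65.5 FPKM in control recipients, and Flt3 had 48.5 and 63.7 FPKM in 5-FU recipients, against 90.0 and 80.5 FPKM in control recipients (adjusted p = 0.095). Kit overlapped between the groups and the Flt3 libraries of 5-FU recipients both lay below those of control recipients. The libraries also held markers of mature cells. The sum of 14 macrophage markers was 19717 and 10785 FPKM in 5-FU recipients, against 23719 and 27648 FPKM in control recipients, with 4 lower. The sum of 10 neutrophil markers was 3731 and 3535 FPKM in 5-FU recipients, against 12639 and 10064 FPKM in control recipients, with 6 lower, and that of the erythroid markers was 86.0 and 115 FPKM in 5-FU recipients, against 1289 and 1851 FPKM in control recipients, with 7 of 8 tested lower. Among B cell markers 3 of 6 were lower, among T and NK cell markers 1 of 3 was higher, and among 5 megakaryocyte markers none passed. Of all tested genes 8.23% were higher and 4.67% lower. The higher T and NK cell marker was Nkg7, at 184 and 314 FPKM in 5-FU recipients, against 109 and 91.1 FPKM in control recipients. Cd3g and Klrb1c overlapped between the groups, and Cd3e, Cd3d and Cd8a were below 1 FPKM in every library and not tested. No marker with a value was at 0 in all 4 libraries, but some lay near 0 and were not tested. The B cell gene Pax5 had 0.107 and 0 FPKM in 5-FU recipients, against 0 and 0 FPKM in control recipients. The globin gene Hba-a1 had 0.0283 and 0.0224 FPKM in 5-FU recipients, against 0.0370 and 0.0338 FPKM in control recipients, and Hbb-bt was not found. The part of the cell type markers and of the cycling genes in the results on Apex1 and Msh6 was not tested. In sorted bulk cells fewer cells of a type and less RNA per cell cannot be told apart. Libraries of a group correlated at 0.956 in 5-FU recipients and 0.969 in control recipients, against 0.896 to 0.929 between groups, and implied depths were 8480000 and 9040000 reads in 5-FU recipients and 7020000 and 7280000 in control recipients.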

How the data were processed

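The authors deposited 1 FPKM table per library. Per the submitters' processing notes, reads of 75 bases were handled with TopHat2 2.0.13, Bowtie2 2.2.3, SAMtools 0.1.19 and Cuffnorm 2.2.1 on mm10; the gene annotation, the normalization setting and the strand are not stated there. The cDNA came from SMART-Seq Ultra Low Input chemistry, per the labels' protocols. The deposited FPKM are not counts, so no count model was used. Groups follow the labels, since column headers and names of the 5-FU tables give different days.

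Genes reaching 1 FPKM in 2 or more of the 4 libraries were compared as log2(FPKM + 1) with limma 3.58.1 in R 4.3.3 (lmFit, eBayes with trend, two-sided), with 2 residual and 5.62 prior degrees of freedom. A p-value sets the group difference against the spread between 2 libraries a group, moderated towards that of other genes of like level. Depth was estimated from low values of genes with 1 annotated transcript of 1500 to 6000 bases. The median of FPKM times length in kilobases, among values between 0.06 and 0.18, was taken as 1 read, so this window bounds the estimate. By that unit 80.3% to 83.2% of low genes lay within 0.2 of a whole read, but these include the genes that set it. Whole reads were not recovered for tests. Transcript likeness was searched with BLAST+ 2.17.0 and promoter sequences are from RefSeq; figures use matplotlib 3.10.9.

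The members and lists were chosen with earlier results of these data known. Every member is named; genes of the repair lists are named where they passed (at most 4 a list, by p), with at most 2 that did not (by mean), and cycling and cell type lists are given by counts and sums. Patterns were compared by Euclidean distance. Apex2, Polb, Samhd1, Ly6a, Kit, Flt3, the named lymphoid and globin markers, neighbours at start sites and sequence copies lie outside that rule. They were chosen after their values were seen. Alternatives were pseudocounts, filters, scalings, eBayes settings, a replicate block and each library left out.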

Additional observations from a re-analysis of the deposited data

How the results depend on the processing

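With 2 libraries a group the counts of calls depend strongly on the setting. Over all tested genes 946 were higher and 537 lower, against 35 and 64 with no filter and 548 and 299 without a trend. With 1 library left out, in which the lone library of its group is taken to vary like the others, the count of higher genes ranged from 88 to 2122 and that of lower genes from 38 to 1876. The 2 higher calls among the 8 genes became 0 with no filter (4 at an unadjusted limma p below 0.05 in either direction, as for each such count here), 0 without a trend (4 unadjusted), and 0 to 3 with 1 library left out. The lower limit came without either control library, and the upper limit without 5-FU replicate 1. Over all genes the same unadjusted cut was passed by 3309 of 23284 with no filter and by 3490 of 11496 without a trend. No alternative gave a lower call among the 8. Their median log2 fold change of 0.51 was 0.30 with a pseudocount of 5 and 0.75 with a filter of 5 FPKM, which leaves out Ung and Smug1. The 12 higher repair partners became 0 with no filter (16 of 37 unadjusted, against 3309 of 23284 genes). All or nearly all of these calls were lost without control replicate 1 or control replicate 2. More partners were higher without either 5-FU library, and a lower partner appeared without 5-FU replicate 1.

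Apex1 and Msh6 kept their direction under all 15 other settings, at 0.86 to 1.37 and 0.88 to 1.34. With no filter their adjusted p-values were 0.27 and 0.28, and without a trend 0.055 and 0.056. With 1 library left out Smug1 ranged from -0.080 (without 5-FU replicate 2) to 0.31, and Xrcc1 from -0.41 to 0.11 (without 5-FU replicate 2 and without control replicate 2), and the causes were not tested. The labels give both groups the numbers 1 and 2 without naming anything shared, and deviations of same-numbered libraries correlated at -0.159. With the replicate block 855 genes were higher and 539 lower, with 2 of the 8 genes and 13 partners higher. With the pairing crossed, added after seeing the data, 1686 were higher and 1365 lower, with 3 of the 8 genes and 18 partners higher. Scaling to TPM moved the median of all genes to -0.09, against -0.01. Of the 8 genes Ung has the fewest estimated reads, and counting error weighs most on it.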
